A study of Mus musculus with 6 samples.

Results

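The genes described here encode the chains of the integrins and the laminins. They were taken from the count table by symbol: every gene named as an integrin alpha chain, an integrin beta chain or a laminin alpha, beta or gamma chain. This gave 37 genes of the 56734 in the table, namely 18 integrin alpha chains, 8 integrin beta chains and 11 laminin chains. RNA had been measured in B16-OVA cells, a mouse melanoma line that carries the model antigen ovalbumin, grown in culture without any treatment named in the labels. The 3 control libraries came from cells labelled WT and the 3 others from cells labelled Ythdf2-KO. The sample titles carry gNC for the WT libraries and gY2 for the Ythdf2-KO libraries. Both groups share the B16-OVA background and differ, by the genotype labels, in Ythdf2 alone. Ythdf2 encodes a cytoplasmic reader of the RNA modification N6-methyladenosine that shortens the life of the transcripts it binds. Whether the knockout is 1 clone or a pool, and whether libraries of a genotype came from separate cultures, is not stated in the labels. The p-values below thus measure the spread between these libraries, which may be technical.

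Integrins are cell surface receptors built from an alpha and a beta chain, and the pair decides which matrix protein or cell surface partner is bound. Laminins are cross-shaped trimers of an alpha, a beta and a gamma chain that are laid down in basement membranes, where integrins with alpha3, alpha6 or alpha7 chains bind them. An integrin chain that lacks its partner is in general not carried to the cell surface. Messenger RNA levels of single integrin or laminin chains do not measure the assembled protein. In melanoma cells these receptors are known for attachment to, and movement through, the surrounding matrix.

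Library totals ran from 55660473 to 69497273 counts, and 3 counts equalled 0.0433 to 0.0540 CPM (counts scaled to library size, with TMM factors). The transcript of Ythdf2 itself was at 124, 124 and 125 CPM in WT libraries and at 100.1, 101 and 104 CPM in Ythdf2-KO libraries. It fell by 0.29 ± 0.026 on the log2 scale (SE; edgeR adjusted p = 4.08e-13), to a ratio of 0.816. That is the direction the labels give. Where the gene was edited is not stated, so counts over the whole gene do not measure how much working transcript was left. Melanocyte genes fixed as a marker list were detected in every library. All 10 were called higher in Ythdf2-KO, as were 24.1% of all genes tested. Their summed level ran from 242 to 246 CPM in WT libraries and from 1444 to 1472 CPM in Ythdf2-KO libraries. Their part in the differences below was not tested, and in bulk RNA fewer cells of a type and less RNA per cell cannot be told apart.

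Integrin and laminin chains moved in both directions, with the larger differences mostly upward and on chains of low to moderate abundance. Of the 37 genes, 31 passed the filter on low counts and were tested. The other 6 (Itga2, Itgam, Itgax, Itgb6, Lama2 and Lamc3) had at most 19 counts in any library. At an adjusted p under 0.05 in edgeR's quasi-likelihood test, 12 of the 31 were called higher in Ythdf2-KO, 9 were called lower and 10 were not called. That is 67.7% called, against 49.9% of all 17718 genes tested. Split by direction, 38.7% were called higher against 24.1% of all genes, and 29.0% were called lower against 25.8%. The called chains at least 2-fold higher numbered 7, where the share over all genes was 6.16%, and 1 was at least 2-fold lower, where the share was 3.38%. In 23 of 31 the libraries of the genotypes did not overlap, 74.2% against 55.9% of all genes. The median log2 fold change was 0.18 over the 31 chains and -0.0053 over all genes tested. All 21 called chains had passed the count minimum in every library of both genotypes, so none was tested through its higher group alone.

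**Figure D1:**
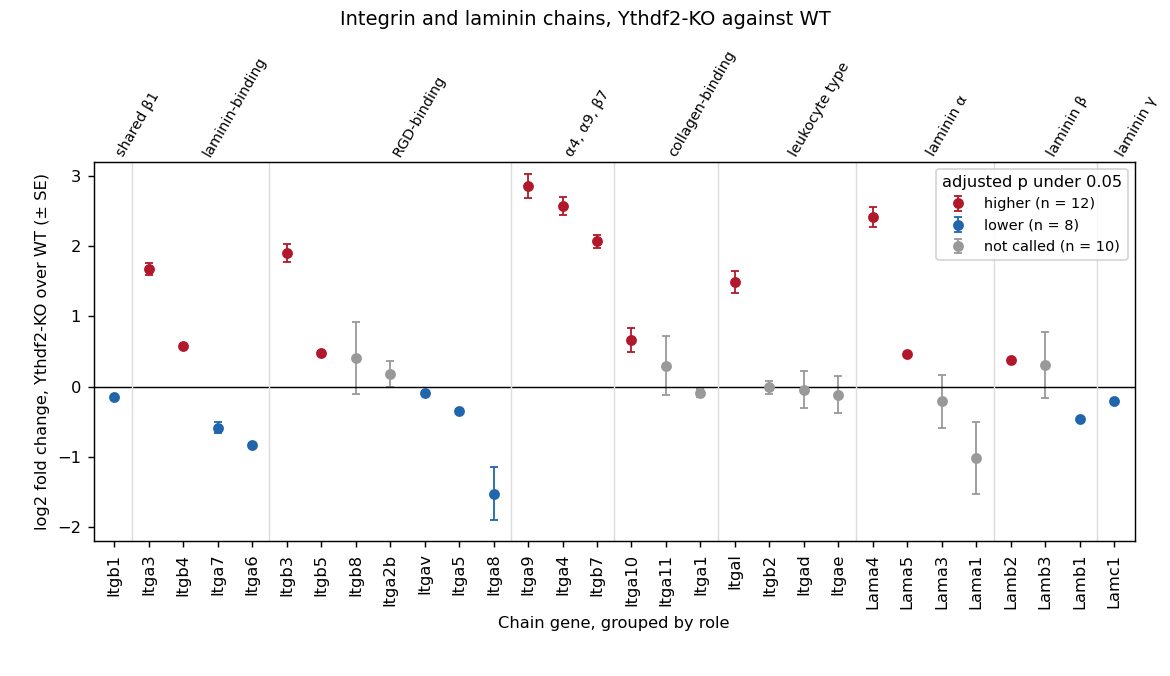
Log2 fold change of Ythdf2-KO over WT (y axis, with SE) for 30 of the 31 chains tested, grouped by role along the x axis and coloured by the edgeR call at an adjusted p under 0.05. The 3 genes of the alpha4, alpha9 and beta7 group lie above 2, and Itga8 is the lowest.

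The beta1 chain is the most widely shared integrin chain, pairing with many alpha chains. Itgb1 was at 1176, 1185 and 1157 CPM in WT libraries and at 1053, 1053 and 1067 CPM in Ythdf2-KO libraries. Every Ythdf2-KO library was below every WT library, by a small margin: the log2 fold change was -0.15 ± 0.020 (SE; edgeR adjusted p = 1.25e-08), or -0.095 with upper-quartile scaling. Per kilobase of exon it was by far the most abundant integrin chain in both genotypes, with means of 287 CPM per kb in WT libraries and 259 CPM per kb in Ythdf2-KO libraries.

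Among the chains that bind laminin, the abundant alpha chain fell and a rarer one rose. Itga6 encodes alpha6, which pairs with beta1 or beta4. It was at 188, 192 and 186 CPM in WT libraries and at 104.5, 106 and 108 CPM in Ythdf2-KO libraries. The groups were far apart, and the gene fell by 0.83 ± 0.025 on the log2 scale (SE; edgeR adjusted p = 3.35e-30), a 1.78-fold lower level. Itgb4 encodes beta4, which pairs with alpha6 only and ties the receptor to keratin filaments in hemidesmosomes. It was at 72.1, 74.4 and 73.6 CPM in WT libraries and at 110.0, 109 and 111 CPM in Ythdf2-KO libraries. This partner of alpha6 thus differed in the opposite direction, with all Ythdf2-KO libraries above WT and a log2 fold change of 0.58 ± 0.028 (SE; edgeR adjusted p = 2.75e-22). Itga3, whose product alpha3 pairs with beta1 and binds laminins with the alpha3 or alpha5 chain, was at 4.54, 6.47 and 5.09 CPM in WT libraries and at 16.8, 17.3 and 17.6 CPM in Ythdf2-KO libraries. Its level was 3.19-fold higher, with no overlap (log2 fold change 1.68 ± 0.088, SE; edgeR adjusted p = 3.85e-18). Itga7, the laminin-binding chain of muscle, was at 11.5, 12.0 and 13.7 CPM in WT libraries and at 7.87, 8.91 and 8.06 CPM in Ythdf2-KO libraries. It was lower in all 3 Ythdf2-KO libraries and fell by 0.58 ± 0.080 on the log2 scale (SE; edgeR adjusted p = 2.72e-08). So all 4 genes of the group were called, 2 in each direction, where 49.9% of all genes tested were called.

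The ratio of Itga6 to Itgb4, per kilobase of exon, was 2.03, 2.01 and 1.96 in WT libraries and 0.738, 0.756 and 0.756 in Ythdf2-KO libraries. It moved from above 1 to below 1 with the union of annotated exons as length. With the longest transcript as length its means were 3.71 in WT libraries and 1.39 in Ythdf2-KO libraries, above 1 in both, so the fall holds under both lengths and the side of 1 depends on the length used. Itga3 relative to Itga6, again per kilobase of exon, had means of 0.0449 in WT libraries and 0.257 in Ythdf2-KO libraries, so alpha6 transcripts stayed the more numerous.

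The alpha4, alpha9 and beta7 chains rose together, and they include the 2 largest rises among the integrin chains. Alpha4 pairs with beta1 or beta7 and binds VCAM-1, MAdCAM-1 and fibronectin. Alpha9 is its closest relative, pairs with beta1 and binds tenascin-C, osteopontin and VCAM-1. Itga9 was at 0.612, 0.657 and 0.657 CPM in WT libraries and at 4.52, 4.52 and 4.98 CPM in Ythdf2-KO libraries. That is a 7.25-fold higher level, from a WT level of 34 to 45 counts a library (log2 fold change 2.86 ± 0.17, SE; edgeR adjusted p = 2.20e-19). Itga4 was at 1.22, 1.63 and 1.21 CPM in WT libraries and at 7.79, 8.16 and 8.39 CPM in Ythdf2-KO libraries. It was 5.96-fold higher, with wide separation of the groups (log2 fold change 2.58 ± 0.13, SE; edgeR adjusted p = 3.47e-22). The gene Cerkl lies on the opposite strand over 8.04% of the exon length of Itga4, and reads of such a pair cannot be told apart without strand; Cerkl itself had 1 to 4 counts a library in WT libraries and 12 to 17 in Ythdf2-KO libraries. Itgb7, whose product pairs with alpha4 or alphaE in lymphocytes that home to the gut, was at 2.54, 3.42 and 3.05 CPM in WT libraries and at 12.9, 12.1 and 13.0 CPM in Ythdf2-KO libraries. Again no library overlapped, and the level was 4.20-fold higher (log2 fold change 2.07 ± 0.096, SE; edgeR adjusted p = 5.73e-23).

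The promoters of these 3 genes are shown because the genes rose together and each has an entry in the RefSeq table (build GRCm38.p6). Each sequence runs 5′ to 3′ on the gene's strand and covers the annotated start. Capitals mark some of the motifs searched. CATGTG, read on either strand as CATGTG or CACATG, is an E-box form that the melanocyte factor MITF is known to bind. TGANTCA is the AP-1 form. CACGTG, also searched, was found in none of these 3 promoters and in 7.15% of all promoters.
Itga9 promoter, chr9:118711442-118711741, plus strand: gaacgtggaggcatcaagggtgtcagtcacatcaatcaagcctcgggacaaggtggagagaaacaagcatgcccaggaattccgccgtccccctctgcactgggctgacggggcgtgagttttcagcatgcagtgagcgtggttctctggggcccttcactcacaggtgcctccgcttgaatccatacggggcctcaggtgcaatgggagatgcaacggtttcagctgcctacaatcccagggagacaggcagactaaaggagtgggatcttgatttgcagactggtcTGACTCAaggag
Itga4 promoter, chr2:79255176-79255475, plus strand: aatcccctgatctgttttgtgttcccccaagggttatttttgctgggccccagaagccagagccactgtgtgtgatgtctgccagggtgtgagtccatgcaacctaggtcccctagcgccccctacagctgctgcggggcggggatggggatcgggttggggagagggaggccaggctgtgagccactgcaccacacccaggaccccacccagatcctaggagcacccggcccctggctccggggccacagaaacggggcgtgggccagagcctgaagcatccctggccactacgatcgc
Itgb7 promoter, chr15:102231886-102232185, minus strand: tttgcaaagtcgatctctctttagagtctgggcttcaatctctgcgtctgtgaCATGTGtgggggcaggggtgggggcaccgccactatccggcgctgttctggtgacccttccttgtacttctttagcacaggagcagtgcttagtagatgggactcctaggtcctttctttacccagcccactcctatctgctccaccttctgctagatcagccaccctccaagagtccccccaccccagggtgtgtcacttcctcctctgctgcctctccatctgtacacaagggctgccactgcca
Itgb7 holds CATGTG, Itga9 holds TGANTCA near the 3′ end of its window, and Itga4 holds neither. Among all 32851 promoters searched, 14.2% hold CATGTG and 7.81% hold TGANTCA, so a match in 1 of 3 promoters is a description only. Of the 37 chain genes, 23 have an entry in the table, with 26 promoters among them. CATGTG was also found in promoters of Itga3, Itgb6 and Lamb1, and TGANTCA in promoters of Itga3 and Itgax. The Itga3 matches both lie in the window of the more downstream of its 2 listed starts. So genes called higher, called lower and not tested all had matches.

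**Figure D2:**
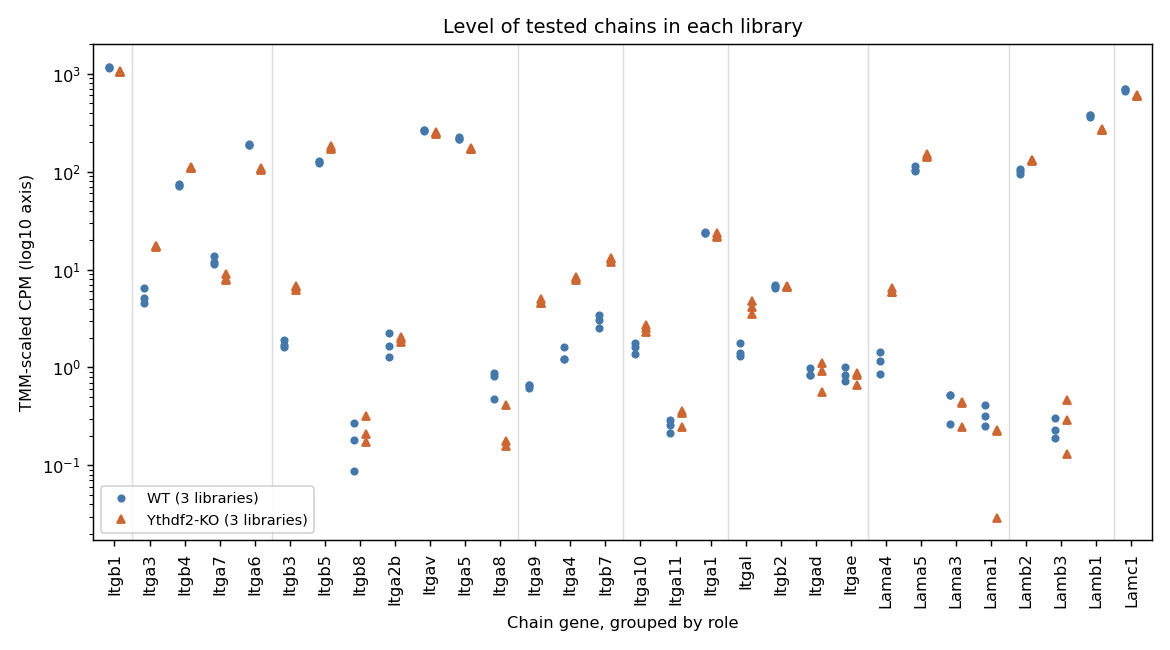
TMM-scaled CPM (log10 axis) of 30 tested chain genes in each of the 3 WT and 3 Ythdf2-KO libraries, 1 point per library. In the chains with large rises, such as Itga9, Itga4, Itgb7 and Lama4, the groups stand clearly apart, while Itgb2 overlaps.

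Of the chains that recognise the RGD motif in fibronectin, vitronectin and related ligands, the abundant alpha chains Itga5 and Itgav were lower and the beta chains Itgb3 and Itgb5 were higher. Itga5, the alpha chain of the fibronectin receptor, was at 225, 214 and 214 CPM in WT libraries and at 171, 173 and 171 CPM in Ythdf2-KO libraries. All Ythdf2-KO libraries were lower, and the gene fell by 0.34 ± 0.024 on the log2 scale (SE; edgeR adjusted p = 9.81e-17). Itgav, the alpha chain shared by the vitronectin receptors, was at 261, 267 and 266 CPM in WT libraries and at 245, 255 and 247 CPM in Ythdf2-KO libraries. This small difference was called (log2 fold change -0.088 ± 0.023, SE; edgeR adjusted p = 0.00101), and lost with upper-quartile scaling (log2 fold change -0.034, edgeR adjusted p = 0.196). Itgb3, a partner of alphav and known in melanoma for invasive growth, was at 1.71, 1.60 and 1.90 CPM in WT libraries and at 6.59, 6.15 and 6.79 CPM in Ythdf2-KO libraries. Its libraries separated fully, and the level was 3.74-fold higher (log2 fold change 1.90 ± 0.12, SE; edgeR adjusted p = 1.06e-17). Itgb5, also a vitronectin-binding partner of alphav, was at 126, 128 and 123 CPM in WT libraries and at 172, 173 and 181 CPM in Ythdf2-KO libraries. It too was higher in all 3 Ythdf2-KO libraries (log2 fold change 0.48 ± 0.026, SE; edgeR adjusted p = 9.55e-21). Per kilobase of exon Itgb5 remained the far more abundant of both, at 49.3 CPM per kb in Ythdf2-KO against 1.10 CPM per kb for Itgb3.

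Itga8, which pairs with beta1 and binds nephronectin, was the 1 called chain at least 2-fold lower. It had 45, 58 and 33 counts in WT libraries and 28, 11 and 11 counts in Ythdf2-KO libraries, or 0.810, 0.886 and 0.482 CPM against 0.410, 0.178 and 0.159 CPM. The highest Ythdf2-KO library lay just under the lowest WT library, and the gene fell by 1.53 ± 0.38 on the log2 scale (SE; edgeR adjusted p = 6.59e-04). Its promoter, shown as that of the one chain called with a fall of this size, which has an entry in the RefSeq table (GRCm38.p6), holds neither motif and so has no capitals.
Itga8 promoter, chr2:12301895-12302194, minus strand: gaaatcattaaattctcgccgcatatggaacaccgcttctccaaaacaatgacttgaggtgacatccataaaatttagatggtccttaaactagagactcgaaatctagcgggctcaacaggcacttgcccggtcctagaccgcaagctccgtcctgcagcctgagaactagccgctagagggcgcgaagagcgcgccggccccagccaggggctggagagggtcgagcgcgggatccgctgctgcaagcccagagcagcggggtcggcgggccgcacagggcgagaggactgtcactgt
The platelet chain Itga2b was not called, at 1.64, 1.27 and 2.23 CPM in WT libraries and 1.80, 2.06 and 1.96 CPM in Ythdf2-KO libraries (log2 fold change 0.18, edgeR adjusted p = 0.474). Itgb8, which with alphav activates TGF-beta, had 6 to 15 counts in WT libraries and 12 to 22 in Ythdf2-KO libraries and was not called (log2 fold change 0.41, edgeR adjusted p = 0.547). Itgb6, the epithelial partner of alphav, had at most 4 counts in any library. Beside these values, the 8 megakaryocyte and platelet markers summed to 2.0 to 3.12 CPM in WT libraries and 5.30 to 7.16 CPM in Ythdf2-KO libraries. Only 4 of them passed the filter, 1 (Ppbp) was called higher, and 3 had fewer than 10 counts in each library. Without Ppbp the sums were 1.04 to 1.24 CPM and 0.893 to 1.52 CPM. Their part in the Itgb3 difference was not tested.

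Collagen-binding chains were mostly not called, and all but Itga1 were at low levels. Itga1 was at 23.7, 24.2 and 23.7 CPM in WT libraries and at 22.2, 23.6 and 21.5 CPM in Ythdf2-KO libraries. The groups just failed to overlap, but the test did not call the gene (log2 fold change -0.090, edgeR adjusted p = 0.150). Itga10, a chain known from cartilage, was at 1.62, 1.36 and 1.78 CPM in WT libraries and at 2.69, 2.53 and 2.31 CPM in Ythdf2-KO libraries. It was called higher (log2 fold change 0.66 ± 0.17, SE; edgeR adjusted p = 0.00101), and it shares 33.5% of its exon length with the predicted gene Gm42957 on the same strand, which had 1 to 8 counts a library. Itga11 had 12 to 24 counts a library and was not called (log2 fold change 0.30, edgeR adjusted p = 0.600). Itga2, the alpha chain of the platelet and epithelial collagen receptor, had 6, 7 and 8 counts in WT libraries and 19, 17 and 9 counts in Ythdf2-KO libraries, too few to enter the test.

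Of the chains typical of leukocytes other than alpha4 and beta7, 1 of 4 tested was called, where 49.9% of all genes tested were called. Itga4 and Itgb7, grouped with Itga9 above, were both called higher. Itgal, the alpha chain of LFA-1, was at 1.30, 1.39 and 1.77 CPM in WT libraries and at 4.19, 3.55 and 4.82 CPM in Ythdf2-KO libraries. It was 2.81-fold higher without overlap (log2 fold change 1.49 ± 0.16, SE; edgeR adjusted p = 3.09e-11). Itgb2, the single beta chain that alphaL pairs with, was at 6.89, 6.49 and 6.83 CPM in WT libraries and at 6.62, 6.80 and 6.66 CPM in Ythdf2-KO libraries. The groups overlapped, with a log2 fold change of -0.0098 ± 0.091 (SE; edgeR adjusted p = 0.944). Itgad and Itgae were not called either, with log2 fold changes of -0.043 and -0.11 (edgeR adjusted p of 0.912 and 0.755). Itgad shares stretches of exon with several annotated genes, Cox6a2 among them, and Itgae encodes the other alpha partner of beta7. Itgam had 4 counts in 1 WT library and none elsewhere, and Itgax had 2 and 4 counts in 2 WT libraries and none elsewhere.

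Leukocyte markers gave these values beside Itgal, Itga4 and Itgb7. The 19 markers summed to 92.0 to 92.8 CPM in WT libraries and to 43.5 to 47.1 CPM in Ythdf2-KO libraries. Most of that difference was S100a8, which fell from 48.2 to 2.31 CPM, and the other 18 summed to 43.1 to 44.9 CPM and 41.3 to 44.6 CPM. Of the 9 that passed the filter, 2 were called higher (Laptm5 and Lyz2) and 4 were called lower (S100a8, Cd68, Cd53 and Adgre1). Over all genes tested, 24.1% were called higher and 25.8% lower. Ly6g was at 0 in all libraries, and Cd3e, Nkg7 and Tyrobp had fewer than 10 counts in each. Ptprc, the pan-leukocyte marker CD45, had 2, 6 and 5 counts in WT libraries and 2, 0 and 74 counts in Ythdf2-KO libraries. The third Ythdf2-KO library thus stood out for Ptprc, and it also had the most counts of Cd3g (17, at most 6 elsewhere), Cd3e (8, at most 2 elsewhere) and Cd52 (10, at most 4 elsewhere). Without this library, the log2 fold change of Itgal was 1.38 (edgeR adjusted p = 5.26e-08).

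Laminin alpha chains were called only upward. Lama5, the alpha chain of the widespread basement membrane laminins, was at 113, 100.7 and 103 CPM in WT libraries and at 144, 141 and 150.2 CPM in Ythdf2-KO libraries. The groups did not overlap, and the log2 fold change was 0.46 ± 0.037 (SE; edgeR adjusted p = 9.97e-09), or 0.26 with offsets for exon length and GC content. Lama4, the alpha chain known from vessel walls and mesenchymal tissue, was at 1.42, 1.16 and 0.861 CPM in WT libraries and at 5.87, 6.48 and 5.93 CPM in Ythdf2-KO libraries. This was the largest difference among the laminins, a 5.35-fold higher level (log2 fold change 2.42 ± 0.15, SE; edgeR adjusted p = 8.18e-19). Lama1, the embryonic alpha chain, had 14, 21 and 28 counts in WT libraries and 2, 14 and 16 counts in Ythdf2-KO libraries, or 0.252, 0.321 and 0.409 CPM against 0.0293, 0.227 and 0.231 CPM. All Ythdf2-KO values were below WT, yet edgeR did not call it (log2 fold change -1.02 ± 0.51, SE; edgeR adjusted p = 0.0953). Lama3, the epithelial alpha chain, had 17 to 34 counts a library and a log2 fold change of -0.21 (edgeR adjusted p = 0.687), and Lama2, the chain of muscle basement membrane, had at most 2 counts.

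Fibroblast and endothelial markers gave these values beside Lama4. All 8 fibroblast markers passed the filter, their sum running from 6974 to 7141 CPM in WT libraries and from 9121 to 9301 CPM in Ythdf2-KO libraries, with 6 called higher and 2 (Dcn and Lum) called lower. None of the 8 was at 0. Over all genes tested, 24.1% were called higher and 25.8% lower. The 7 endothelial markers summed to 2.64 to 2.83 CPM in WT libraries and 2.19 to 2.45 CPM in Ythdf2-KO libraries, with 3 tested, 1 called in each direction and Emcn at 0 in every library. The 7 epithelial markers summed to at most 0.305 CPM in WT libraries and 0.659 CPM in Ythdf2-KO libraries, and none passed the filter. Whether the fibroblast markers bear on Lama4 was not tested.

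The beta and gamma chains, which complete the trimer, were lower where most abundant. Lamb1, the common beta chain, was at 378, 375 and 364 CPM in WT libraries and at 266, 267 and 274 CPM in Ythdf2-KO libraries. It fell by 0.47 ± 0.022 on the log2 scale (SE; edgeR adjusted p = 1.07e-22), with no overlap. Lamb2, the beta chain of kidney filter and synapse, was at 107, 95.0 and 102 CPM in WT libraries and at 132, 128 and 133 CPM in Ythdf2-KO libraries. It was higher in every Ythdf2-KO library (log2 fold change 0.37 ± 0.032, SE; edgeR adjusted p = 3.87e-11). Lamc1, the gamma chain of most laminins, was at 695, 697 and 672 CPM in WT libraries and at 591, 591 and 609 CPM in Ythdf2-KO libraries. The difference was small beside its level but larger than the spread of the libraries (log2 fold change -0.21 ± 0.021, SE; edgeR adjusted p = 1.77e-11). Lamb3, the beta chain of epithelial laminin, had 9 to 32 counts a library and was not called (log2 fold change 0.31, edgeR adjusted p = 0.629), and Lamc3 had at most 8 counts.

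Per kilobase of exon, with the union of annotated exons as length, Itga5, Itgav and Itga6 came first among the alpha chains in both genotypes. Their means were 44.1, 24.6 and 20.9 CPM per kb in WT libraries and 34.8, 23.2 and 11.7 CPM per kb in Ythdf2-KO libraries. Itga7, Itga1 and Itga3 followed in WT at 1.53, 1.28 and 0.940 CPM per kb. In Ythdf2-KO the next were Itga3, Itga1 and Itga7 at 3.02, 1.21 and 1.02 CPM per kb, so Itga3 moved ahead of both. Itgal, Itga9 and Itga4 came after these in Ythdf2-KO, with means of 0.637, 0.608 and 0.580 CPM per kb. Neighbours in this run overlapped between libraries. With the longest transcript as length the order of the alpha chains changed in part. Itga6 then made up 31.5% and Itgav 27.0% of the summed alpha chains in WT, against 22.3% and 32.0% in Ythdf2-KO. Itga7 and Itga1 then overlapped in Ythdf2-KO, with means of 1.87% and 1.85%. Among the beta chains Itgb1, Itgb5 and Itgb4 led in both genotypes, and Itgb7 passed Itgb2, with means of 1.08 and 2.21 CPM per kb in WT libraries and 4.57 and 2.19 CPM per kb in Ythdf2-KO libraries. Lamc1, Lamb1, Lamb2 and Lama5 were the leading laminin chains in both genotypes, with Lama5 at 9.27 CPM per kb in WT libraries and 12.7 CPM per kb in Ythdf2-KO libraries.

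The makeup of the chain classes shifted, in abundant chains and in some rarer ones. Shares are percentages of the summed level per kilobase of exon, given as mean ± SD over 3 libraries; with 3 against 3 the two-sided exact permutation test cannot go below p = 0.1, the value reached wherever the groups did not overlap. Itgb1 made up 85.3 ± 0.096% of the beta chains in WT libraries and 78.1 ± 0.257% in Ythdf2-KO libraries. The beta1 share gave way to Itgb5, which went from 10.5 ± 0.0660% to 14.9 ± 0.262%, and Itgb4, which went from 3.11 ± 0.0552% to 4.72 ± 0.0286%. Itga6 went from 22.03 ± 0.343% to 15.04 ± 0.249% of the alpha chains, and Itgav from 25.9 ± 0.510% to 29.7 ± 0.331%, although the level of Itgav itself was slightly lower. Rarer chains gained share as well. Itga3 went from 0.990 ± 0.186% to 3.86 ± 0.0749% of the alpha chains. Itgb7 went from 0.322 ± 0.0461% to 1.38 ± 0.0483% of the integrin beta chains. The share of Lamb1 among the beta chains of laminin went from 69.2 ± 1.28% to 55.7 ± 0.508%, and that of Lamb2 from 30.7 ± 1.28% to 44.2 ± 0.473%. Lama5 remained the main laminin alpha chain at 98.2 ± 0.263% and 95.8 ± 0.377%, with Lama4 at 1.00 ± 0.201% and 3.80 ± 0.291%. None of these groups overlapped. The summed alpha chains were at 95.0 ± 0.782 CPM per kb in WT libraries and 78.1 ± 0.904 CPM per kb in Ythdf2-KO libraries, again without overlap. The summed beta chains overlapped, at 337 ± 4.24 and 332 ± 3.67 CPM per kb (exact permutation p = 0.2).

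**Figure D3:**
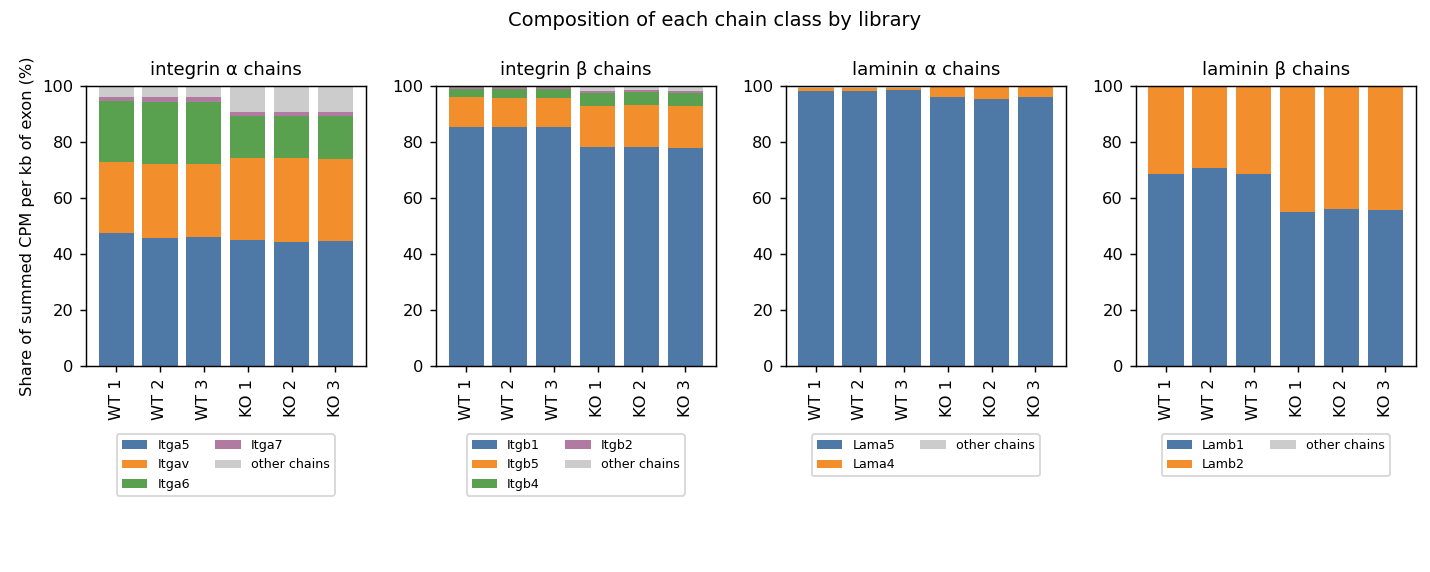
Stacked bars of the share of each chain in the summed CPM per kilobase of exon of its class (percent), by library, for 3 WT and 3 Ythdf2-KO libraries. Lamb1 falls from a mean of 69.2% to 55.7% of the laminin beta chains, and Itgb1 from 85.3% to 78.1% of the integrin beta chains.

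Against all genes tested, the chains with the large rises sat at low to moderate abundance. The 7 called chains at least 2-fold higher had means of 4.18 to 17.2 CPM in Ythdf2-KO, while the chains over 100 CPM in both genotypes (Itgb1, Lamc1, Lamb1, Itgav, Itga5, Itga6, Itgb5, Lama5 and Lamb2) differed by less than 2-fold. Integrins and laminins were called in like proportion, 68.2% of 22 integrin chains and 66.7% of 9 laminin chains, a difference that was not tested.

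**Figure D4:**
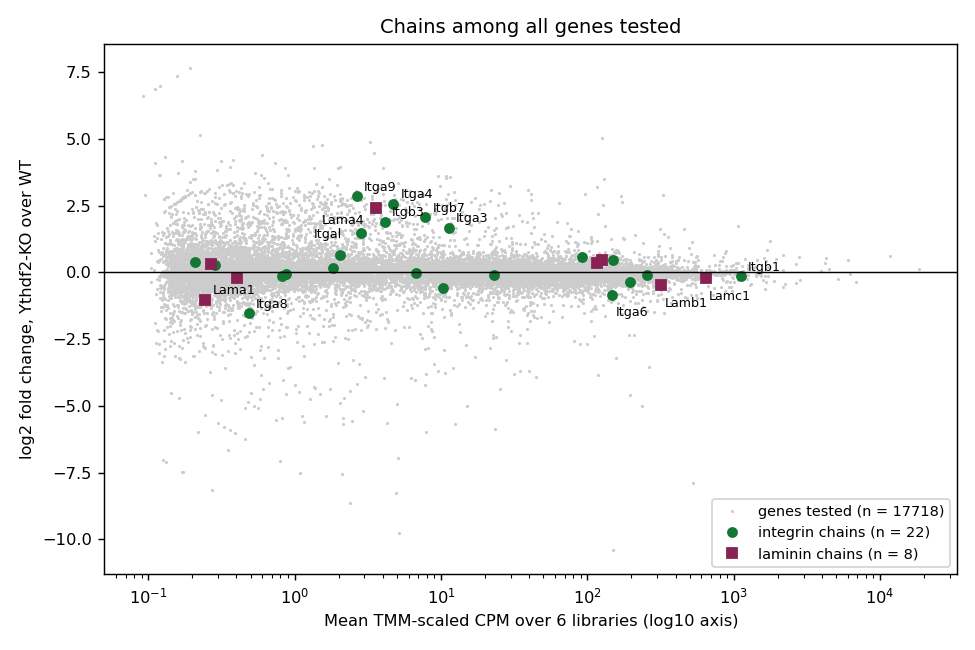
Log2 fold change of Ythdf2-KO over WT against the mean TMM-scaled CPM over 6 libraries (log10 axis) for all 17718 genes tested (grey), with 22 integrin chains and 8 laminin chains marked. The marked points above 2 (Itga9, Itga4, Lama4 and Itgb7) lie left of the middle of the abundance range, and Itgb1 and Lamc1 lie near 0 at its right.

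Genes that act with the chains also included calls in both directions. Of 43 adaptors and kinases that couple integrins to actin, 41 were tested, with 22 called higher and 11 called lower, and the median log2 fold change was 0.11. The 4 with the smallest adjusted p all rose. Vcl, encoding vinculin, which reinforces the link to actin, was at 116 ± 4.53 CPM in WT libraries and 195 ± 4.57 CPM in Ythdf2-KO libraries (SD, n = 3; log2 fold change 0.75, edgeR adjusted p = 8.18e-27). The others were Flna (filamin A, log2 fold change 0.51), Parva (alpha-parvin, 0.56) and Tns2 (tensin 2, 0.50). Of 30 further basement membrane genes, 25 were tested, with 14 called higher and 7 called lower, and the median was 0.27. Sparc, a collagen-binding matrix protein, rose from 321 to 708 CPM, and Col18a1, the precursor of endostatin, fell from 49.3 to 10.9 CPM. Tinagl1 and Ecm1 rose too, with log2 fold changes of 0.78 and 1.10.

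Among laminin receptors outside the integrin family, with the enzymes that glycosylate dystroglycan, 14 of 25 were called higher and 5 lower, with a median of 0.080. The 4 with the smallest adjusted p all fell: Sdc4 from 555 to 322 CPM, Sdc3 from 326 to 192, Sdc1 from 448 to 339 and Gpc1 from 1128 to 892. Each encodes a carrier of heparan sulfate, but Sdc2, the remaining syndecan, rose from 70.8 to 87.2 CPM. Dag1, which encodes dystroglycan itself, was not called (log2 fold change 0.011, edgeR adjusted p = 0.726). The list of other integrin ligands, which also holds membrane partners of integrins (Cd47, Cd9, Cd81 and Cd151), had 49 genes in the table. Of these, 37 were tested, with 16 called higher and 14 lower, and a median of 0.038. Thbs1, encoding thrombospondin 1, rose from 22 to 169 CPM, Thbs2 fell from 627 to 327, Fn1, the fibronectin gene, rose from 9170 to 14050, and Cd47 fell from 264 to 162. Known ligands of the chains with large rises, named here after their values were seen, were called in both directions. Vcam1, bound by alpha4 and alpha9, fell from 311 to 246 CPM and Spp1 (osteopontin), bound by alpha9, from 7699 to 6067 CPM, while Tnc (tenascin-C), also bound by alpha9, rose from 1.43 to 2.84 CPM. For alphaL, Icam1 fell from 1.71 to 0.142 CPM and Icam5 from 6.58 to 1.97 CPM, while Icam2 rose from 0.609 to 2.17 CPM. Across the 4 lists 76 to 84% of tested genes were called, against 49.9% of all genes. The lists were chosen with earlier results of these data known and were not matched to all genes by abundance. The shares are thus a description only.

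**Figure D5:**
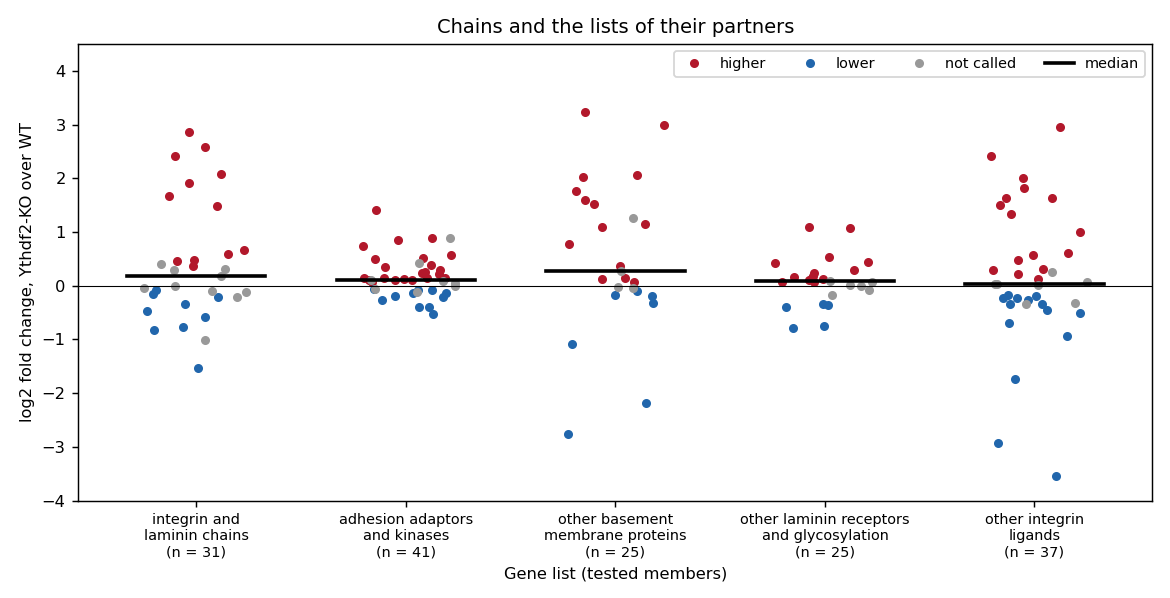
Log2 fold change of Ythdf2-KO over WT for the 31 tested chains and the tested genes of the 4 lists of partners, 1 point per gene, coloured by the edgeR call at an adjusted p under 0.05, with the median as a black bar (sideways scatter is for legibility). Each list holds genes called in both directions, with Thbs1 near 3 among the integrin ligands.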

How the data were processed

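Polyadenylated RNA was measured in 6 B16-OVA libraries, 3 WT and 3 Ythdf2-KO, grouped by the genotype labels. The deposited values are whole counts per gene symbol, not normalized by the authors. Per the submitters' processing notes, the tools included fastp 0.23.2, HISAT2 2.2.1 and featureCounts 2.0.6, with build GRCm39. How strand, read pairs and multiply aligned reads were handled is not stated in the notes or labels. Low counts were even more often than odd: 65.3% of 52377 nonzero counts in genes with few counts, so 1 fragment may have been counted as 2.

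Chain genes were found by symbol. The members and gene lists were chosen with earlier results of these data known. The counts went into edgeR 4.0.16 (R 4.3.3): filterByExpr defaults (17718 genes kept), TMM factors, a robust quasi-likelihood fit on genotype, and p-values adjusted by Benjamini-Hochberg across the whole tested table. Calls were made below an adjusted p of 0.05. Fold changes are fitted values and CPM are TMM-scaled. Named were all chain genes, Ythdf2, and in each list the 4 genes with the smallest adjusted p, unless said otherwise; a few are not reported here. Exon lengths came from GENCODE vM21 (GRCm38), joined by symbol since a GRCm39 annotation was not used here. Promoters, from RefSeq (GRCm38.p6), span 250 bases before to 50 after the start; both strands were searched. The statistical code was tested on simulated data.

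Replicate numbers were checked for pairing: correlations of same-numbered libraries' deviations ran from -0.124 to 0.0459 and those of other pairs from -0.0609 to 0.144, so no pairing was used. Alternatives covered scaling, filters, DESeq2 1.42.0, limma-voom (limma 3.58.1), a stricter threshold, a replicate block, offsets for length and GC content, and leaving out each library.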

Additional observations from a re-analysis of the deposited data

How the results depend on the processing

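Across the alternatives, 12 chain genes were called higher and 8 to 11 lower, except with a filter at a mean of 5 CPM. That filter leaves 16 chains to test, of which 6 were called higher and 8 lower. Under it, 10507 genes of the whole table were tested, with 3410 called higher and 3524 called lower. With the replicate block the counts of chain genes were 12 higher and 9 lower, as without it. Leaving out each library in turn also gave 12 higher and 9 lower. Upper-quartile scaling lost Itgav (log2 fold change -0.034) and left 7 adhesion adaptors called lower; it raised the share of higher calls among all called genes from 48.3% to 59.2%, and the median of all genes to 0.049 on the log2 scale. The filter at a mean of 5 CPM left 8 basement membrane genes and 10 genes of the integrin ligand list called higher. Lama1 was called with limma-voom (-1.41) and with length and GC offsets (-1.15), and Itga1 with the offsets (-0.25). The offsets moved Lama5 to 0.26 and Itgav to -0.17, both still called. The causes were not tested.

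Direction reversed only for 5 chains that no test called. Itgad was 0.013 and Itgb2 0.044 with upper-quartile scaling, and Itgb2 was 0.010 with no filter and 0.014 with the filter at 5 CPM. Leaving out 1 library gave -0.25 to 0.19 for Itgad, -0.20 to 0.018 for Itgae, -0.026 to 0.010 for Itgb2, -0.48 to 0.021 for Lama3 and -0.20 to 0.67 for Lamb3. For Itga8 it gave -2.09 to -1.28. Lengths from the longest transcript kept the direction of the shares given above, with no overlap between genotypes, but changed their size. The share of Itga5, not given above, did depend on the length. It was 46.4% of the alpha chains in WT and 44.5% in Ythdf2-KO by the union of exons, without overlap. By the longest transcript it was 35.5% and 35.2%, with overlap (exact permutation p = 0.9).

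Depth limits the 6 untested chains and those under 1 CPM, where 3 counts are 0.0433 to 0.0540 CPM. Counting of read pairs singly was not tested and would widen their counting error.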

Other observations

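Transcripts of the chain genes were also searched for GGACT, the most common form of the sequence in which N6-methyladenosine is found, in the longest coding transcript of GENCODE vM21. The number of matches per kilobase had a median of 1.05 over the 13022 tested genes with a coding transcript. It was 1.33 over the 12 chains called higher, 1.03 over the 9 called lower and 1.52 over the 10 not called. The ranges overlapped widely, from 0.662 to 2.13 in the chains called higher and from 0.524 to 1.98 in those called lower. Itgb1 had the lowest value of the tested chains, with 2 matches, and Itgb2 the highest, at 2.69 per kilobase. A match is not a measured modification, and these values are given without a test.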
